A study of Arabidopsis thaliana with 2 samples.

Results

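Extensins and genes annotated with extensin-like sequence were taken from a microarray comparison of aluminium-treated and control roots of Arabidopsis thaliana. The members were chosen by annotation and not by any measured value. A probe belonged if the gene description in the scanner file of replicate 1 held the word extensin, in any case, and did not hold arabinogalactan. This gave 102 members among 21500 gene probes, with 1 probe per gene, and all 102 were also present on the array of replicate 2. The label "extensin and extensin-like wall proteins" covers more than wall proteins. The opening name held extensin for 37 members, whereas 65 carried the word only in a later note on a domain or a similar protein.

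The treated roots came from 10-day-old hydroponic seedlings of the Col-0 accession, whose roots spent 6 h in solution with 10 µM AlCl3 at pH 5.0. The control roots came from seedlings of the same accession and age kept for 6 h at pH 5.0 without AlCl3 (0 µM). Aluminium RNA and control RNA were hybridised together on each of 2 arrays, which the labels call biological replicates, with Cy3 on the aluminium RNA of replicate 1 and Cy5 on that of replicate 2. Values are log2 ratios of aluminium over control, and a gene was called higher or lower at an adjusted p under 0.05 in limma. Dye, array layout, scanner software and replicate change together and cannot be told apart. Whole roots were sampled, so a change in the number of cells of a type cannot be told apart from a change in RNA per cell.

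Extensins are secreted wall glycoproteins built from repeats of serine followed by several prolines, with tyrosines between them. The prolines are hydroxylated and then carry short arabinose chains, and peroxidases join the tyrosines of neighbouring molecules into a network. Leucine-rich repeat extensins (LRX) join a domain of leucine-rich repeats to an extensin tail and bind RALF peptides in the wall. Ole e 1 proteins are named after an olive pollen allergen, and some of them are wall proteins of root hairs. Aluminium ions bind strongly in root walls and stop root growth.

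Of the 97 members that could be tested, 14 were higher in aluminium-treated roots and 7 were lower. The share higher was 14.4% of members, against 8.25% of all 19194 genes tested, and the share lower was 7.22%, against 6.48%. EXT4 had the largest mean ratio of the members. Over all 102 members the median log2 ratio was -0.0049 on replicate 1 and 0.06 on replicate 2, against -0.0019 and 0.01 over all genes. Both arrays gave a positive ratio for 42 members and a negative ratio for 34, and the sign differed for 26. At least a doubling on both arrays was seen for 2 members, EXT4 and PELPK2, and a halving on both arrays for 0. Both counts depended on the processing. In the authors' series matrix AT4G27850 was also at least doubled on both arrays (1.01 and 1.07), against ratios of 0.81 and 0.68 here. By the scanner software's ratios, AT3G09925 (-1.06 and -1.16) and AT5G14540 (-1.38 and -1.02) were at least halved on both arrays. The calls depend on how the signals were processed: with the scanner software's own ratios, which differ in background correction, offset and normalization, 0 members passed in either direction, where 170 genes of all were higher and 118 lower. At an unadjusted p under 0.05, those ratios gave 19 members higher and 12 lower. With the authors' series matrix 0 members and 0 of all genes passed, and 17 members were higher and 14 lower at an unadjusted p under 0.05. All 21 called members kept the direction of their mean in both.

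**Figure D1:**
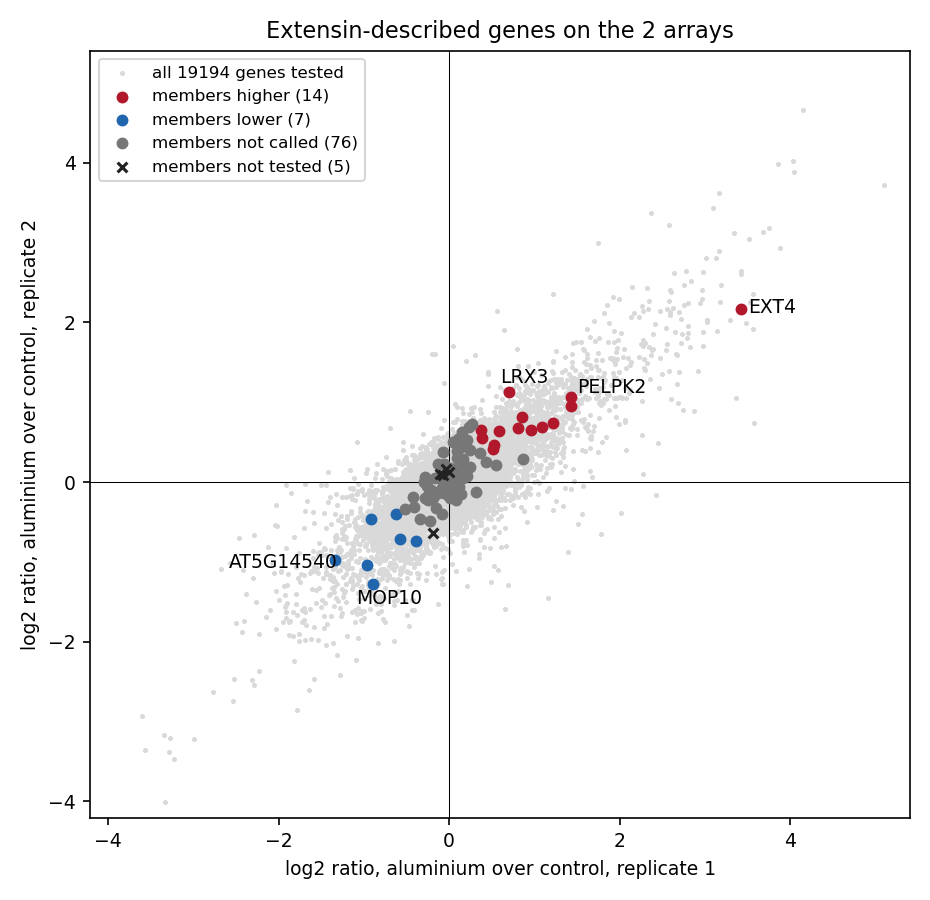
Log2 ratio of aluminium over control on replicate 1 (horizontal axis) and replicate 2 (vertical axis) for all 19194 genes tested and the 102 extensin-described members, coloured by call. EXT4 lies at 3.43 and 2.17, apart from the other members, most of which lie near 0 on both arrays.

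The 13 proline-rich extensin-like members were classed by the opening words of their descriptions. EXT4 (AT1G76930, also called EXT1), a classical extensin known to respond to wounding, had normalized signals of 23844 scanner units on replicate 1 and 11398 on replicate 2 with aluminium, against 2218 and 2540 units in the control. Its signal was thus far higher with aluminium on both arrays. Signals were not normalized between arrays, so the levels of the 2 arrays cannot be set against each other. The log2 ratios were 3.43 and 2.17, with a mean of 2.80 ± 0.89 (SD, n = 2), a 6.94-fold difference at adjusted p = 0.00797. EXT4 stood at rank 25 from the top among all 19194 genes.

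EXT3 (AT1G21310), known as RSH for its part in building the cell plate of the embryo, had 37194 and 16751 units with aluminium, against 24734 and 10770 units in the control. The aluminium signal was the higher of the pair on each array, although the arrays differed from each other by more than the treatments did. The levels of the 2 arrays are not on a common scale. The ratios of 0.59 and 0.64 gave a mean of 0.61 ± 0.034 (SD, n = 2), 1.53-fold, at adjusted p = 0.0179. EXT3 depended on the scaling: with median centring in place of the loess curve its ratios were -0.06 and 0.85, and it was not called (adjusted p = 0.540). EXT4 and EXT3 were the only 2 members whose description cites the Pfam extensin-like region.

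The other 11 proline-rich extensin-like members did not pass. The class thus had 15.4% higher and 0% lower, against 8.25% and 6.48% of all genes. Their ratios ran from -0.15 to 0.23 on replicate 1 and from -0.33 to 0.69 on replicate 2. Within this class 7 genes lay close together (chosen after their values were seen): AT3G54580, HRGP1, AT4G08380, AT4G08400, AT4G08410, AT1G23720 and AT2G43150. Their ratios were 0.05 to 0.23 on replicate 1 and 0.44 to 0.69 on replicate 2, with adjusted p between 0.0920 and 0.248. All 7 were positive on both arrays and larger on replicate 2. Whether the probes separate close copies of these repetitive genes was not tested, so the 7 may not be independent measurements. EXT12 gave -0.02 and 0.11, EXT13 gave -0.02 and -0.17, and AT5G19810 gave -0.15 and -0.33. The class median was 0.10 on replicate 1 and 0.50 on replicate 2, and replicate 2 was the larger in 10 of 13 members, against 49.5% of all genes. With median centring the class medians were -0.06 and 0.76, so the direction on replicate 1 rests on the scaling.

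**Figure D2:**
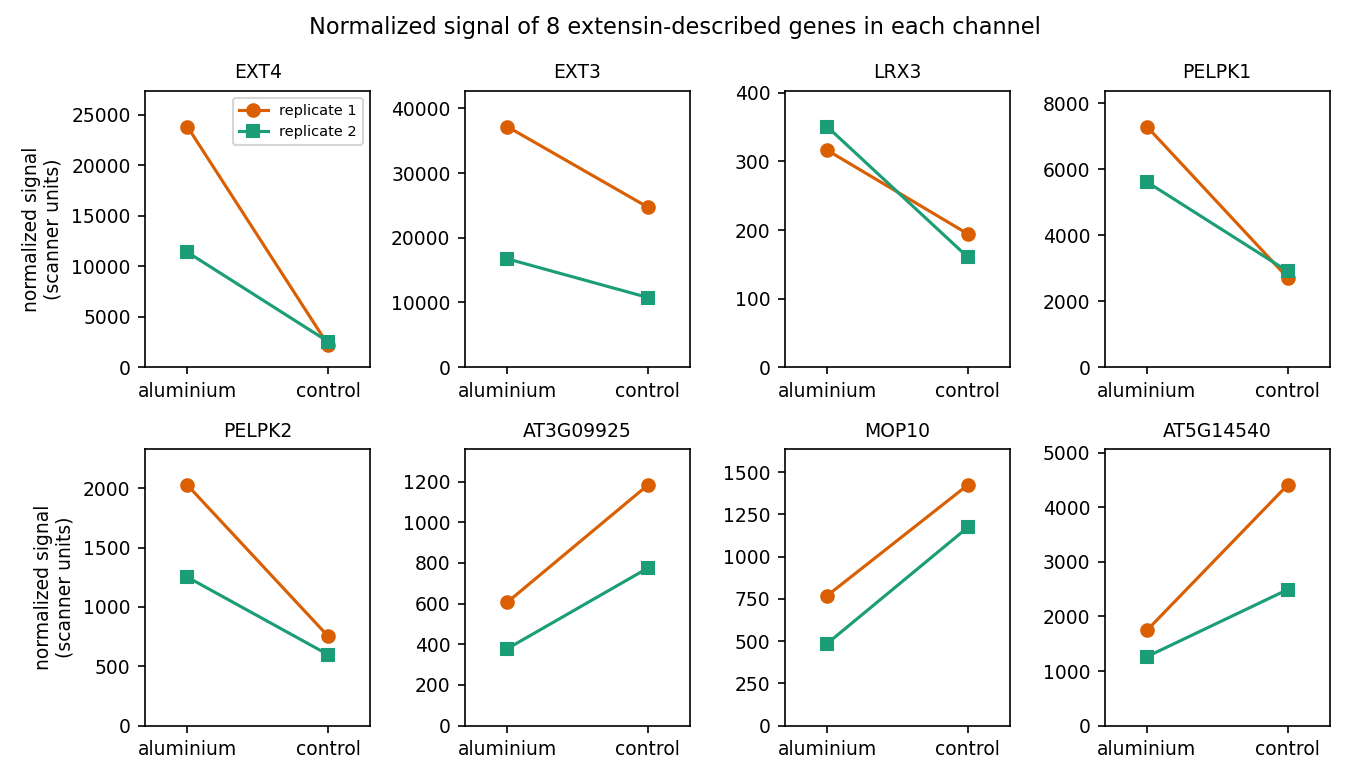
Normalized signal in scanner units, from 0, of 8 called members in the aluminium and control channels of each array (circles, replicate 1; squares, replicate 2; lines join the channels of an array). The aluminium point lies above the control point on both arrays for EXT4, EXT3, LRX3, PELPK1 and PELPK2 and below it on both for AT3G09925, MOP10 and AT5G14540.

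The LRX class here holds the 14 members whose description names leucine-rich repeats. Whether each of them has an extensin tail was not tested. The description of AT4G28380 names extensin only through a similar protein. Of the 14 members 13 were tested, and LRX3 rose while no other member was called in either direction by limma. The shares were 7.69% higher and 0% lower, against 8.25% and 6.48% of all genes. LRX3 (AT4G13340) acts in the walls of growing cells, where it binds RALF peptides. It had 317 and 351 units with aluminium, against 194 and 161 units in the control. The aluminium signal was the higher on both arrays. The ratios were 0.70 and 1.13, with a mean of 0.92 ± 0.30 (SD, n = 2), 1.89-fold, at adjusted p = 0.0160.

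LRX1 and LRX2, which shape root hairs, did not pass. LRX2 gave ratios of 0.27 and 0.72 (adjusted p = 0.0774), and its signals were 567 and 516 units with aluminium, against 471 and 313 units in the control. LRX1 gave 0.24 and 0.19 (adjusted p = 0.190). The lowest member of the class by its mean was AT3G24480, with ratios of -0.27 and -0.01 (adjusted p = 0.451). The class median was 0.02 on replicate 1 and 0.04 on replicate 2, and the sign differed between arrays in 8 of 14 members. At an unadjusted p under 0.05, 2 members were higher and 0 lower.

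Of the 11 Ole e 1 members, all tested, 3 fell (27.3%) and 0 rose, against 6.48% and 8.25% of all genes. MOP10 (AT5G05500), also called PRPL1, is a proline-rich protein of root hair walls that hairs need to reach full length. Its signals were 769 and 485 units with aluminium, against 1423 and 1173 units in the control. The ratios of -0.89 and -1.27 gave a mean of -1.08 ± 0.27 (SD, n = 2), 2.12-fold lower, at adjusted p = 0.00978. AT3G09925, described as similar to a pistil extensin-like protein of tobacco, had 606 and 378 units with aluminium, against 1182 and 775 units in the control. Its ratios were -0.96 and -1.03 (mean -0.999 ± 0.050 (SD, n = 2), 2.00-fold lower, adjusted p = 0.00623), which was the smallest adjusted p of all members. AT5G10130, described as similar to a maize pollen protein, gave -0.91 and -0.47, a mean of -0.69 ± 0.31 (SD, n = 2), at adjusted p = 0.0333. In all 3 genes the aluminium signal was the lower on both arrays.

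The remaining 8 Ole e 1 members included RHS13, named as root hair specific, with ratios of -0.28 and -0.20 (adjusted p = 0.165). AT1G78040 was the highest of them, at 0.43 and 0.25 (adjusted p = 0.0912). It had 22034 and 8361 units with aluminium, against 16348 and 7048 units in the control. The other members, SAH7 (-0.01 and -0.09) included, had both ratios between -0.11 and 0.10. The class median was -0.01 on replicate 1 and -0.09 on replicate 2, and all 11 members had the same sign on both arrays. For a rise, 1 member had an unadjusted p under 0.05.

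Markers of root hairs were read beside the 3 lower genes. Of 10 listed, 9 were tested and 6 fell, against 6.48% of all genes, with list medians of -0.89 on replicate 1 and -0.60 on replicate 2. Markers of other root cells also fell, 4 of 7 tested, with medians of -0.65 and -0.54. Lower values were thus not particular to the root hair markers. EXPA7, a root hair expansin, gave -1.83 and -1.63 (adjusted p = 0.00279), and its relative EXPA18 gave -1.31 and -0.86 (adjusted p = 0.0117). Among the transcription factors that start and drive hair growth, RSL4 gave -1.61 and -1.33, RSL2 gave -0.89 and -0.60, and RHD6 gave -0.57 and -0.76. SHV2, also a listed root hair marker, gave -0.61 and -0.43. RSL1 (-0.92 and -0.38) and RHD2 (-0.27 and -0.56), the oxidase of hair tips, did not pass. All 9 were above background in all 4 channels. Some genes of other classes and lists that act in or are named for root hairs (chosen after their values were seen) had positive ratios on both arrays without passing, namely LRX1 (0.24 and 0.19), LRX2 (0.27 and 0.72), PRP1 (0.08 and 0.24) and the peroxidase RHS19 (0.20 and 0.60). The part of root hairs in the lower values of MOP10, AT3G09925 and AT5G10130 was not tested.

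The 30 hydroxyproline-rich glycoprotein members held 5 that rose (17.9%) and 2 that fell (7.14%) among 28 tested. Over all genes the shares were 8.25% higher and 6.48% lower. PELPK1 and PELPK2, neighbouring genes whose proteins carry a short repeated motif of proline, glutamate, leucine and lysine, had the largest ratios of the class. PELPK2 had 2027 and 1251 units with aluminium, against 755 and 599 units in the control. PELPK1 had 7299 and 5621 units with aluminium, against 2716 and 2912 units in the control. In both genes the aluminium signal was the higher on both arrays. PELPK2 gave 1.43 and 1.06, a mean of 1.24 ± 0.26 (SD, n = 2), 2.37-fold, at adjusted p = 0.00685. PELPK1 gave 1.43 and 0.95, a mean of 1.19 ± 0.34 (SD, n = 2), 2.28-fold, at adjusted p = 0.0102.

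The other 3 that rose were AT2G22510, AT4G16790 and AT4G23470. AT2G22510, described as similar to a proline-rich wall protein of cotton, gave ratios of 0.96 and 0.65 (adjusted p = 0.0155) from signals of 284 and 272 units with aluminium, against 146 and 173 units in the control. AT4G16790 gave 0.53 and 0.46 (adjusted p = 0.0302), and AT4G23470 gave 0.51 and 0.41 (adjusted p = 0.0376). These last genes lie near the smallest change that was called over all genes, a mean of 0.40 in either direction. AT4G25620 fell, with ratios of -0.57 and -0.71 (adjusted p = 0.0179) and signals of 173 and 149 units with aluminium, against 257 and 244 units in the control. AT5G09480 also fell, with ratios of -0.39 and -0.74 (adjusted p = 0.0409). With a normexp offset of 16 or with median centring, AT4G16790, AT4G23470 and AT5G09480 were not called, and with median centring AT4G25620 was not called either. This left 3 higher and 1 lower in the class with the smaller offset, and 3 higher and 0 lower with median centring. The class median was 0.0088 on replicate 1 and 0.0052 on replicate 2. AT5G49280 (-0.34 and -0.46, adjusted p = 0.0557) and AT4G38080 (0.36 and 0.37, adjusted p = 0.0614) were the nearest to the threshold of those that did not pass. AGP25 (0.11 and 0.13) and AGP26 (-0.43 and -0.19) have arabinogalactan names in RefSeq but not in the array's description, and neither passed.

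**Figure D3:**
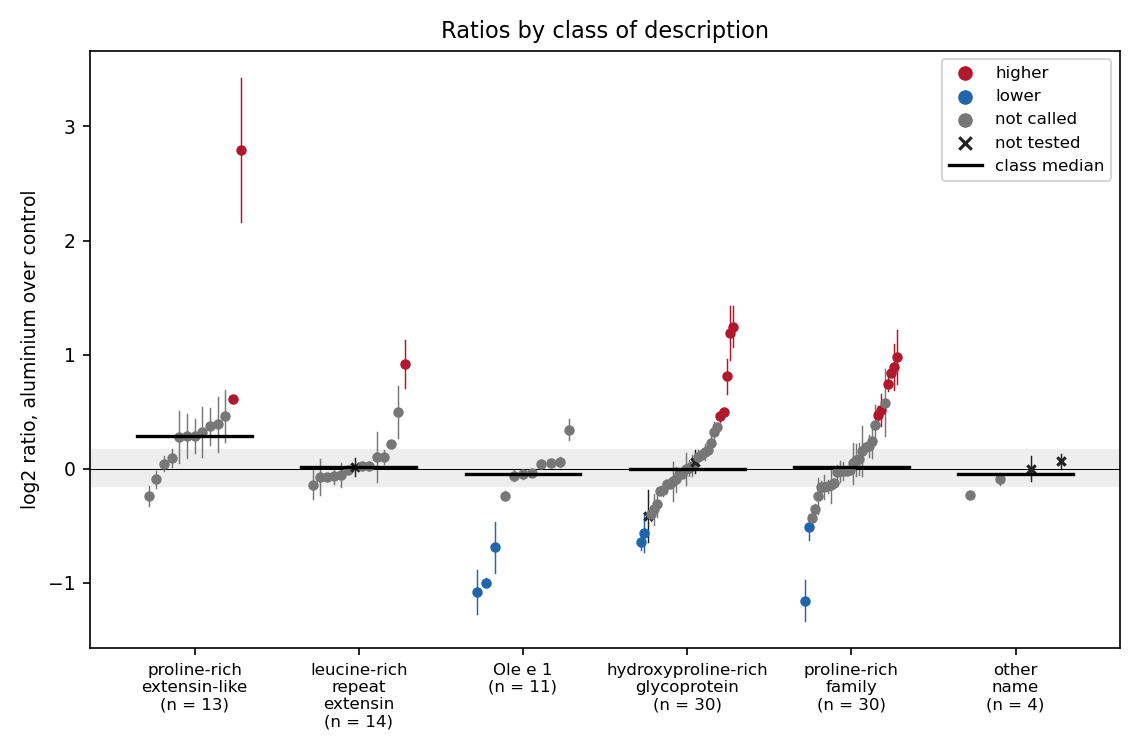
Mean log2 ratio of aluminium over control for each of the 102 members, grouped by the opening words of their descriptions, with a line joining the values of the 2 arrays and a bar at each class median. The grey band is the middle 50% of all genes tested (-0.15 to 0.16), and the 3 lower Ole e 1 genes and EXT4 lie well outside it.

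The 30 proline-rich family members, all tested, held 6 that rose (20%) and 2 that fell (6.67%), against 8.25% and 6.48% of all genes. Their descriptions name extensin only through a domain or a similar protein. AT4G19200 was the highest, with 12650 and 8983 units with aluminium, against 5449 and 5363 units in the control, and ratios of 1.22 and 0.74 (mean 0.98 ± 0.33 (SD, n = 2), 1.97-fold, adjusted p = 0.0155). WIH2, a small protein known for its part in forming the spore mother cell of the ovule, gave 1.09 and 0.69 (adjusted p = 0.0160). Its signals were 4079 and 1877 units with aluminium, against 1910 and 1164 units in the control. On replicate 2 the aluminium signal of WIH2 lay below the control signal of replicate 1, so only the comparison within an array separates the treatments.

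AT3G49840 gave ratios of 0.86 and 0.82 (adjusted p = 0.00886), and AT4G27850 gave 0.81 and 0.68 (adjusted p = 0.0127). Both were higher by nearly the same amount on the 2 arrays. AT3G49300 (0.38 and 0.66, adjusted p = 0.0422) and AT1G12810 (0.39 and 0.55, adjusted p = 0.0400) made up the rest. AT5G14540 had the lowest mean ratio of all members. It had 1746 and 1263 units with aluminium, against 4404 and 2490 units in the control, so the aluminium signal was the lower on both arrays. Its ratios were -1.33 and -0.98, a mean of -1.16 ± 0.25 (SD, n = 2), 2.23-fold lower, at adjusted p = 0.00793. AT1G64450 gave -0.63 and -0.40 (adjusted p = 0.0375) from signals of 175 and 163 units with aluminium, against 270 and 214 units in the control.

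AT3G49300 and AT1G12810 were not called with a normexp offset of 16 or with median centring, and AT1G64450 was not called with median centring. The class then held 4 higher and 2 lower genes with the smaller offset, and 4 higher and 1 lower with median centring. The class median was -0.07 on replicate 1 and 0.14 on replicate 2. AT5G45350 had the largest mean ratio that did not pass. It gave 0.87 on replicate 1 and 0.29 on replicate 2, so that the arrays differed by more than the size of the smaller ratio (adjusted p = 0.0754). AT4G16140 was the lowest that did not pass, at -0.52 and -0.34 (adjusted p = 0.0507). It was called lower, at adjusted p = 0.0469, when probes had to be above background in every channel. EPR1, an extensin-like protein known from the endosperm of germinating seeds, gave 0.10 and 0.39 (adjusted p = 0.227), and PRP4 gave 0.15 and 0.24 (adjusted p = 0.246).

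Some members are named in RefSeq for work outside the wall, among them the chloroplast import protein TIC40, the decapping protein DCP1, the flowering regulators ELF5 and ELF7, the nuclear pore protein LNO1 and the RNA-binding protein LARP1a. With AT4G03120, described as similar to a protein of the U1 ribonucleoprotein, and the carbonic anhydrase ACA8, these 8 genes were chosen after their values were seen. Their mean ratios ran from -0.23 to 0.38. Of the 7 tested, limma called 0, and 1 had an unadjusted p under 0.05. The choice left out WIH2, which was called higher, so the count of 0 depends on the genes picked. Members with extensin in the opening name were called higher in 3 of 37 and lower in 3 of 37 (8.11% each). Those with extensin only in a later note were called higher in 11 of 60 tested (18.3%) and lower in 4 (6.67%). Over all genes the shares were 8.25% higher and 6.48% lower, and the difference between the shares of these groups was not tested.

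**Figure D4:**
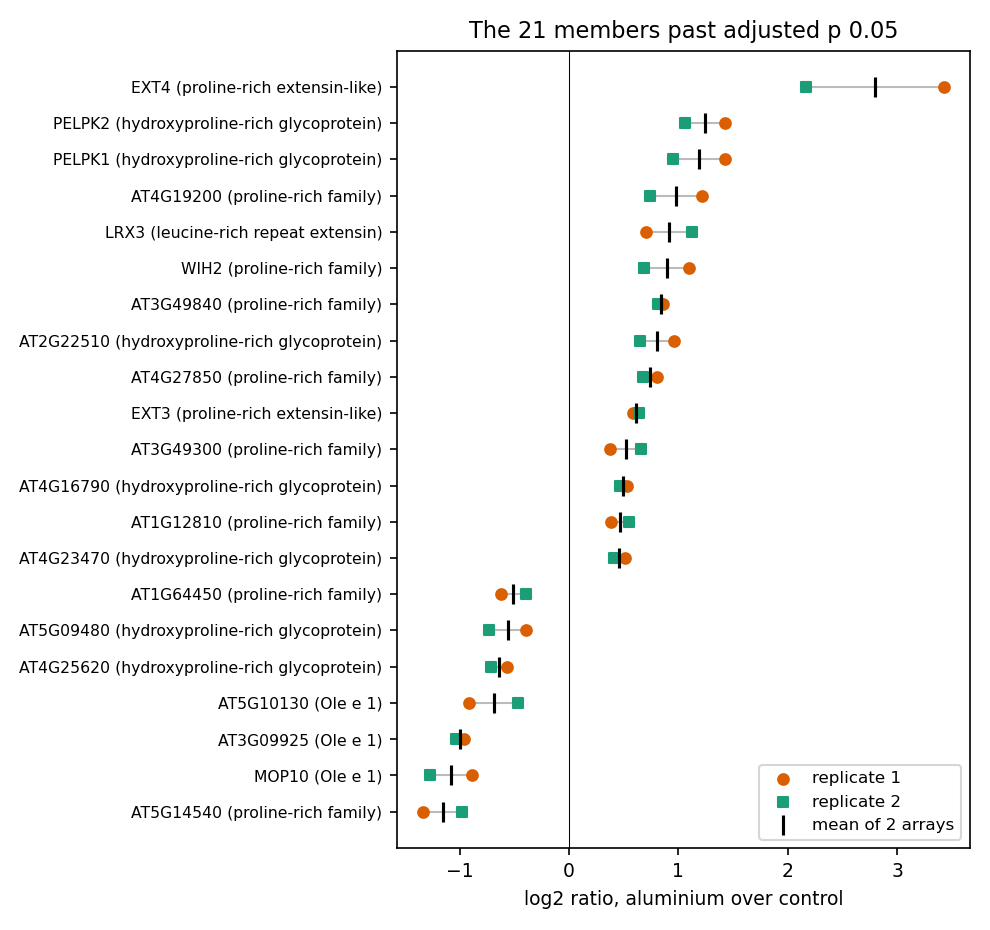
Log2 ratio of aluminium over control on each array (circles, replicate 1; squares, replicate 2) and their mean (vertical tick) for the 21 members called, ordered by mean. The 14 higher members run from EXT4 at 2.80 to AT4G23470 at 0.46, and the 7 lower ones from AT1G64450 at -0.51 to AT5G14540 at -1.16.

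Some members lie next to each other in the genome. By the order of protein-coding genes in RefSeq (assembly TAIR10.1), 13 members fell into 5 groups in which the next member was no more than 5 genes away. The group of AT5G09480, PELPK2 and PELPK1 on chromosome 5 held genes of opposite direction, since AT5G09480 was lower and the PELPK pair was higher. The array's description lists these genes as members of a common family. AT3G54580 and HRGP1 form a group on chromosome 3, and AT4G08370, AT4G08380, AT4G08400 and AT4G08410 form another on chromosome 4. These groups hold 5 of the 7 proline-rich extensin-like genes with close values, and none of these was called. AT4G08370 stood apart there, with 0.01 and 0.17. AT5G19800 (0.17 and 0.05) and its neighbour AT5G19810 (-0.15 and -0.33) had opposite signs without passing. AT5G26070, next to AT5G26080, was too dim to test.

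Genes that modify or crosslink extensins, or are linked to LRX proteins, were read from lists drawn up from general knowledge, with earlier results of these data known. Of 13 genes for proline hydroxylation and arabinosylation 11 were tested, and limma called 2 higher and 0 lower. Over all genes the shares were 8.25% higher and 6.48% lower. AT3G57630, listed as the arabinosyltransferase EXAD and annotated as an exostosin family protein, gave 0.81 and 0.61 (adjusted p = 0.0161). AT5G25265, listed as the arabinosyltransferase HPAT1 and annotated only as an expressed protein, gave 0.57 and 0.66 (adjusted p = 0.0185). The prolyl hydroxylases P4H2 (0.42 and 0.33), AT-P4H-1 (0.40 and 0.28) and P4H5 (0.44 and 0.20) were positive on both arrays and did not pass. Among the other arabinosyltransferases listed, RRA1, RRA2, RRA3 and XEG113 had both ratios between -0.15 and 0.12. At an unadjusted p under 0.05, 5 genes of this list were higher and 1 lower.

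Of 7 listed peroxidases 6 were tested, with 1 higher and 1 lower, against 8.25% and 6.48% of all genes. PRXCB, a peroxidase of the cell wall, gave 1.20 and 1.39 (adjusted p = 0.00436), whereas AT1G44970, described as a putative peroxidase, gave -1.92 and -1.54 (adjusted p = 0.00384). Of 8 listed genes for RALF peptides, receptors and a co-receptor linked to LRX proteins, 3 were higher and 1 was lower. The shares over all genes were 8.25% and 6.48%. Whether each listed protein binds LRX proteins was not tested. The peptides RALFL22 (0.60 and 0.73, adjusted p = 0.0160) and RALFL33 (0.70 and 0.62, adjusted p = 0.0155) rose, as did LLG1 (0.61 and 0.51, adjusted p = 0.0234), a membrane-anchored co-receptor. THE1, a receptor kinase that senses the wall, gave -0.55 and -0.59 (adjusted p = 0.0212). Other RALF peptides of the list did not pass, with -0.43 and -0.26 for RALF23 (adjusted p = 0.0837) and 0.21 and 0.09 for RALF1. FER, the receptor that works with LLG1, gave 0.24 and 0.17 (adjusted p = 0.214). Of 5 other proline-rich wall proteins, the one called was MOP10, itself a member. PRP3, which is expressed in root hairs, gave -0.05 and 0.48.

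**Figure D5:**
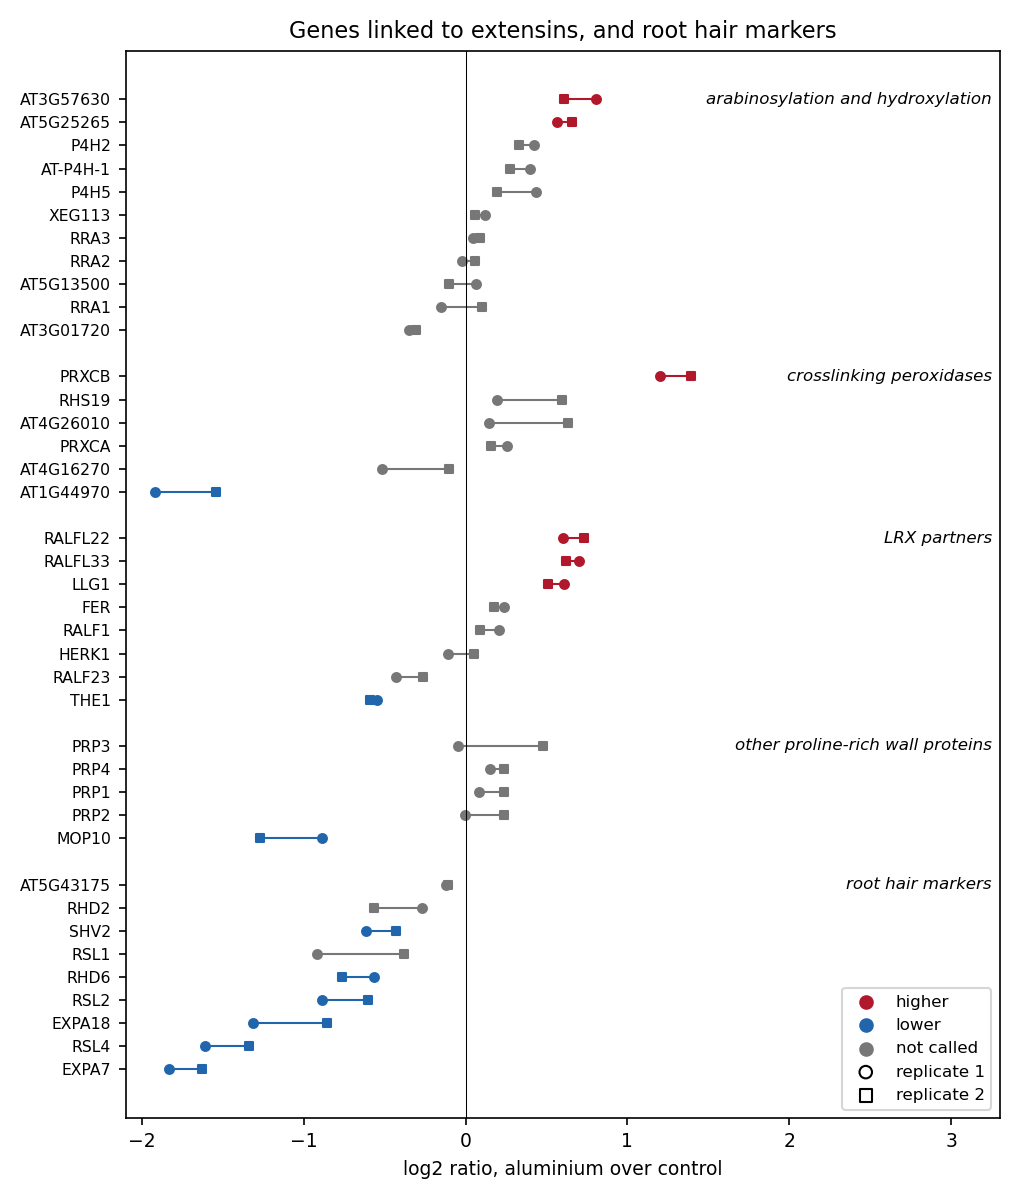
Log2 ratio of aluminium over control on each array (circles, replicate 1; squares, replicate 2) for the tested genes of 4 lists linked to extensins and of the root hair marker list, coloured by call. The linked lists hold 6 higher and 3 lower genes, and all 9 root hair markers lie below 0 on both arrays.

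The tissue label was read against root and shoot markers. Of 9 other root markers 7 were tested, all above background in all 4 channels. Of these 4 fell, against 6.48% of all genes, among them SKOR (-2.23 and -2.36), CASP1 (-1.68 and -1.80) and SHR (-0.43 and -0.54). Of 7 green shoot markers all were also above background in all 4 channels, so the detection marks do not separate root from shoot. Their mean ratios lay between -0.11 and 0.11. limma called 0 of these 7, and 0 had an unadjusted p under 0.05. No member was saturated, and 96 of 102 were above background in all 4 channels, including all 21 that were called.

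With 2 arrays the number of samples limits the precision. An exact sign-flip test over 2 arrays cannot go below p = 0.5. In the limma fit each gene has 1 residual degree of freedom of its own. The other 4.06 (prior) degrees of freedom are borrowed from all genes, so every adjusted p rests largely on that shared spread.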

How the data were processed

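Root RNA of aluminium-treated and control seedlings was measured on 2 two-colour Agilent arrays. The deposited scanner files hold raw spot intensity for each channel, written per the file headers by Feature Extraction 8.1.1.1 (replicate 1) and 7.1.1 (replicate 2), whereas the submitters' processing notes name 9.5.1.1. They also give a log10 ratio of Cy5 over Cy3, from the software's own corrected signals per the file headers. The deposited series matrix of the authors holds log2 values of aluminium over control, and its scale and direction were read from the scanner ratios (r = 0.998 and 0.887). Its medians are -0.0103 and -0.0112, and its normalization and centring stay unknown.

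In limma 3.58.1 (R 4.3.3), the mean signal of each spot was background-corrected by normexp with offset 50, and each array was then scaled by a loess curve fitted without its control spots (736 and 1075). Both ratios were set as aluminium over control. They were tested against 0 by lmFit and eBayes (two-sided, 1 residual and 4.06 prior degrees of freedom). Benjamini-Hochberg adjustment ran over 19194 genes. Left out were 108 probes with an outlier mark, 1151 others that failed the background mark in both channels of an array, and 1047 with no locus shared by both layouts. Signals are given per channel, normalized within each array but not between arrays, and include the offset. At least 94.4% of probes were above background in every channel. The procedure was tested on simulated data.

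Members and lists were chosen with earlier results of these data known. The split by opening words was added after the descriptions were read. Named genes are all called members, the largest ratio in each direction that did not pass in each subfamily, and the called genes of each list, of which 1 is not reported here; others were chosen after their values were seen. All 102 loci were found in RefSeq (TAIR10.1), 26 with a symbol. No build is named in the files and coordinates are left out. The planned reading of protein and promoter sequences was not run here. Alternatives covered background correction, scaling, the deposited ratios, the filters and leaving out each array.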

Additional observations from a re-analysis of the deposited data

How the results depend on the processing

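The count of 14 members higher and 7 lower was the same without background correction, without the filters and over all kept probes, and 14 and 8 with background passed in every channel. With a normexp offset of 16, 10 were higher and 6 lower. With median centring, 9 were higher and 4 lower, all among the original calls, as 889 of all genes were higher and 586 lower. The prior degrees of freedom were infinite in that fit, so the same spread served all genes. With the scanner software's ratios, 0 were higher and 0 lower (smallest adjusted p of a member 0.0548), and with the authors' series matrix also 0 and 0 (0.0663, with 17 and 14 at an unadjusted p under 0.05), where 0 of all genes were called in either direction. The linked lists, with 6 higher and 3 lower, gave 2 higher and 2 lower with median centring, 1 higher and 1 lower with the scanner ratios, and 0 and 0 with the series matrix. The cause was not tested. All 21 called members kept the direction of their mean under these 8 alternatives. Without either replicate only a ratio is left, with no test. All 21 already had the same sign on both arrays, so leaving out an array could not change their direction. Aluminium and control RNA of a replicate share an array, so each ratio is already a paired comparison. At this number of arrays, changes under 0.40 on the log2 scale were not called.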

Other observations

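The 5 members that could not be tested gave these values. AT1G22420 carried an outlier mark and gave ratios of -0.18 and -0.64. Its signals were 88.6 units with aluminium and 100.6 units in the control on replicate 1, and 16577 units with aluminium and 25845 units in the control on replicate 2. The arrays thus disagree on its level by far more than the treatments do. AT5G26070 (-0.04 and 0.16), AT4G28380 (-0.06 and 0.09) and ACA8 (0.00043 and 0.13) were not well above background in any channel of at least 1 array. AT1G62760 had another locus in the second layout and gave -0.11 and 0.11.

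Of the 21 called members, 13 lay farther from 0 on replicate 1 than on replicate 2.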
